A study of Homo sapiens with 6 samples.

Results

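Messenger RNA of 10 chemokine genes was followed in the human fibrosarcoma line HT-1080. The genes, chosen by symbol, were CXCL1, CXCL2, CXCL3, CXCL5, CXCL6, CXCL8, CXCL10, CCL2, CCL5 and CCL20, and all 10 were among the 20683 symbols counted in each library. One group was given SLV-8472-01, a compound known here by this code alone and described by the series as an inhibitor of the kinase IRAK4, for 4 h at a labelled 5 mM. Whether this dose reached the cells or describes a stock solution is left unsaid by the labels. The control group had 0.1% DMSO for 4 h. Both groups were the same line in medium with serum, with 3 libraries each that the series describes as biological replicates, so every value belongs to 1 cell line at 1 time and 1 dose.

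Chemokines are small secreted proteins that draw white blood cells along a gradient through G protein-coupled receptors. The CXC members with a glutamate-leucine-arginine motif before their first cysteines (CXCL1, CXCL2, CXCL3, CXCL5, CXCL6 and CXCL8) attract neutrophils through CXCR2, and CXCL6 and CXCL8 also through CXCR1. CXCL10 lacks that motif and attracts activated T cells through CXCR3, while the CC members CCL2, CCL5 and CCL20 act on receptors that include CCR2 for CCL2, CCR1 and CCR3 for CCL5, and CCR6 for CCL20. Many of these genes are silent or low at rest and are induced within hours by interleukin-1, tumour necrosis factor or microbial products through the transcription factor NF-kB, with AP-1, C/EBP or interferon-regulated factors at some promoters. IRAK4 lies on the way from interleukin-1 and Toll-like receptors to NF-kB.

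In normalised counts CXCL3, CXCL8, CXCL10, CCL5 and CCL20 of the 10 genes were higher in every inhibitor library than in every DMSO library. Over all genes tested, 17.7% were. CXCL10 and CCL5 had enough counts for testing in the inhibitor libraries alone, so they had to lie higher there and add no separate support. Of the chemokine genes with enough counts to test in both groups, CXCL3 and CXCL8 rose 9.33-fold and 5.53-fold and CCL20 1.92-fold. CCL2 had under 10 counts in every library, and CXCL1, CXCL2, CXCL5 and CXCL6 had none. Because each gene is read through its own amplified part, levels were compared between groups and not between genes.

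The promoters are shown because CXCL3 and CXCL8, which rose, and the genes without a count all carry the NF-kB-type letters GGAATTTCC close to their start. CXCL10, which also rose, carries the same letters on the opposite strand, farther from its start (-176 to -168) and outside the bases printed below. CCL20, which rose as well, carries other NF-kB-type letters. RefSeq sequences (GRCh38.p14) were matched by symbol for 8 of the 10 genes, all except CCL2 and CCL5, as windows of 300 bases from 250 before to 50 after the annotated start. The lines below give the 150 bases before the start, 5′ to 3′ on the gene's own strand, with matches to the NF-kB-type motif GGNNTTTCC or to the NF-kB consensus in capitals. They lie at chr4:73740419-73740568 on the plus strand for CXCL8, chr4:74038690-74038839 on the minus strand for CXCL3, chr4:73869243-73869392 on the plus strand for CXCL1, chr4:74099196-74099345 on the minus strand for CXCL2, chr4:76023498-76023647 on the minus strand for CXCL10 and chr2:227813692-227813841 on the plus strand for CCL20.
CXCL8: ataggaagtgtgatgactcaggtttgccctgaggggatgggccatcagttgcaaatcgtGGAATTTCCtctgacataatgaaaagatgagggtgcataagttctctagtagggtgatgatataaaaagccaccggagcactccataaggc
CXCL3: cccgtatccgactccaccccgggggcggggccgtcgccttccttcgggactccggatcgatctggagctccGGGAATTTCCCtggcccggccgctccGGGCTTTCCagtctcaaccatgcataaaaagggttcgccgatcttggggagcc
CXCL1: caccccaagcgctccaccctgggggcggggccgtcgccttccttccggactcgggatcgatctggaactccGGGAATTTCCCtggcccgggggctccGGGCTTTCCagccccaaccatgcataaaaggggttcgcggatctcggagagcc
CXCL2: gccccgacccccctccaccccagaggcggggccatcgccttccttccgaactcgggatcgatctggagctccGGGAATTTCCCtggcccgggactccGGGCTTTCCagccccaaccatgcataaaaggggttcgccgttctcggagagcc
CXCL10: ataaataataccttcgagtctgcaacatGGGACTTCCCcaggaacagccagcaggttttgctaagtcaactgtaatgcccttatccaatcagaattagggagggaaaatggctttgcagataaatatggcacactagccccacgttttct
CCL20: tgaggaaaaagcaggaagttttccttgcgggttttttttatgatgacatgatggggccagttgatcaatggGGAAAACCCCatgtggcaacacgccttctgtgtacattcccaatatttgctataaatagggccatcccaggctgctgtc

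All 8 windows held GGNNTTTCC on either strand, against 6.26% of 35116 RefSeq promoter windows of the same length. The NF-kB consensus, whose matches overlap those of GGNNTTTCC in each of these genes and also occur alone in CXCL10, was found in 7 of the 8 and in 11.3% of all windows. The CXCL8 window held GGAATTTCC from base -91 to -83 without a consensus match, and the same 9 letters stood from -78 to -70 in CXCL3 and in CXCL1 and from -77 to -69 in CXCL2. The AP-1 motif TGANTCA (7.71% of all windows) was in CXCL8 alone of the 8, as TGACTCA from -137 to -131. An interferon-type motif, GAAANNGAA (8.11%), was in CXCL2, CXCL3 and CXCL10, and TATAAA (11.5%) in CXCL8 and CCL20. The composite motif TGATGNAA of ATF4 and C/EBP (3.62%) was in none of these windows, which says only that these letters are not in these bases. The aligned windows of CXCL1 and CXCL3 were identical in 82.5% of columns, and those of CXCL2 and CXCL3 in 73.7%. These are matches of letters, and no binding was measured.

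**Figure D1:**
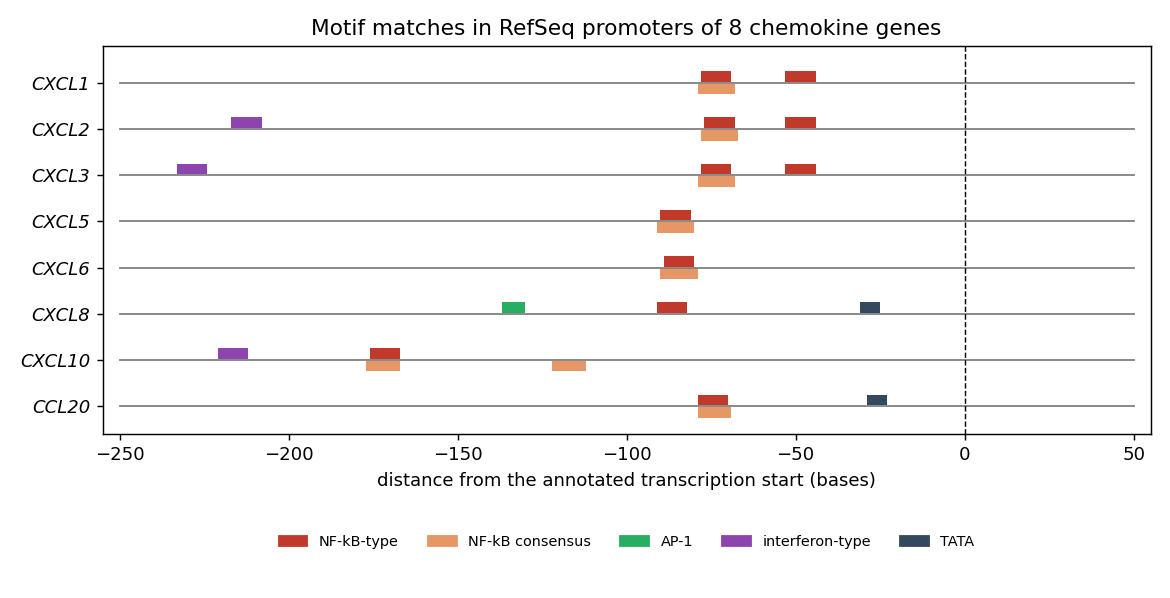
Motif matches on either strand in the RefSeq promoter windows of 8 chemokine genes, by distance in bases from the annotated start (dashed line); NF-kB consensus matches are drawn under the line and all others above it. A match to the NF-kB-type motif lies within 91 bases of the start in all of these genes except CXCL10, where it starts 176 bases before it.

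CXCL8, also called interleukin-8 and a neutrophil attractant, had 1429 counts over the 6 libraries. It was at 41.6, 50.3 and 26.0 CPM (counts scaled to a library of 1000000 and for library composition) in inhibitor replicates 1, 2 and 3, and at 7.38, 7.10 and 6.90 CPM in the DMSO replicates, from 464, 462 and 194 and from 116, 110 and 83 raw counts. The DMSO libraries lay close together, and the inhibitor libraries were spread over a wider range that began well above them. The group means were 39.3 ± 12.3 and 7.13 ± 0.24 CPM (SD, n = 3). CXCL8 rose by 2.47 ± 0.18 on the log2 scale (SE; 95% interval 2.09 to 2.84), or 5.53-fold (edgeR quasi-likelihood test, Benjamini-Hochberg adjusted p = 1.93e-09). That difference was the 9th largest rise of 11391 genes tested.

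CXCL3, another ligand of CXCR2, had 194, 154 and 82 counts in the inhibitor libraries and 23, 27 and 20 with DMSO. In normalised counts it was at 17.4, 16.8 and 11.0 CPM in the inhibitor libraries and 1.46, 1.74 and 1.66 in the DMSO libraries. The groups were far apart, and inhibitor replicate 3 was again the lowest of its group. The means were 15.1 ± 3.53 and 1.62 ± 0.14 CPM (SD, n = 3). CXCL3 rose by 3.22 ± 0.22 on the log2 scale (95% interval 2.77 to 3.67), or 9.33-fold, the 5th largest rise of all genes tested (edgeR adjusted p = 5.22e-10).

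Inhibitor replicate 3 was also the library with the fewest counts in all, 7644478. Without it the log2 fold changes were 2.68 for CXCL8 and 3.39 for CXCL3, so both rises were as large without that library. Within each library CXCL3 had 0.418, 0.333 and 0.423 counts per count of CXCL8 with the inhibitor and 0.198, 0.245 and 0.241 with DMSO. This ratio, which does not depend on library size, was higher in each inhibitor library than in any DMSO library, by 1.72 times on average, and was given no test.

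CCL5, or RANTES, which attracts T cells and monocytes, had 31, 31 and 20 counts in the inhibitor libraries and 12, 3 and 3 with DMSO. These are 2.78, 3.37 and 2.68 CPM against 0.76, 0.19 and 0.25 CPM. The lowest inhibitor library was over 3 times the highest DMSO library, which was replicate 1. CCL5 rose by 2.80 ± 0.41 on the log2 scale (95% interval 1.96 to 3.64, edgeR adjusted p = 3.77e-05), the 6th largest rise. It passed the count filter through the inhibitor libraries alone, so this test is no separate support for a rise. Without DMSO replicate 1, which alone held 12 of the group's 18 counts, the log2 fold change was 3.69 (adjusted p = 1.61e-05).

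CXCL10, an interferon-induced attractant of T cells, gave 19, 11 and 8 counts in the inhibitor libraries, while no DMSO library held any (0, 0 and 0). Its inhibitor levels were 1.70, 1.20 and 1.07 CPM, and a count of 0 allows up to 0.196, 0.203 and 0.25 CPM in the DMSO libraries. Against 3 counts over the whole DMSO group, CXCL10 was 18.7-fold higher with the inhibitor by library totals. This ratio leaves out the error of the inhibitor counts. CXCL10 passed the count filter through the inhibitor libraries alone, so its edgeR test (adjusted p = 3.05e-05) is no separate support for a rise. Its neighbours in the genome, CXCL9 and CXCL11, which share the receptor CXCR3, summed to 2 and 9 counts over the 6 libraries, all with the inhibitor: 1, 0 and 1 for CXCL9 and 7, 0 and 2 for CXCL11. Both were picked for naming once their values were known, and neither was tested.

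CCL20, which draws CCR6-bearing dendritic cells and lymphocytes, had 32, 19 and 16 counts in the inhibitor libraries and 19, 24 and 11 with DMSO. Normalised, it was at 2.87, 2.07 and 2.14 CPM and at 1.21, 1.55 and 0.91 CPM. The groups did not overlap but lay close, at 2.36 ± 0.44 and 1.22 ± 0.32 CPM (SD, n = 3). CCL20 rose by 0.94 ± 0.32 on the log2 scale (95% interval 0.28 to 1.60), or 1.92-fold, the 246th largest rise (edgeR adjusted p = 0.0393). That call was lost in 8 of 14 other settings, with adjusted p from 0.051 to 0.198. Among them were the settings without inhibitor replicate 1 (0.198), inhibitor replicate 2 (0.0562), DMSO replicate 1 (0.0941) or DMSO replicate 3 (0.134), with library totals as the scaling (0.0534), and with DESeq2 as the test (0.0894). The log2 fold change was between 0.75 and 1.14 in all 14.

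CCL2, or MCP-1, the main attractant of monocytes, had 8, 3 and 2 counts in the inhibitor libraries and 2, 6 and 1 with DMSO, too few for the count filter. The groups overlapped. The summed counts of 13 against 9 gave a ratio of 2.13 by library totals, with an exact 95% interval from 0.844 to 5.66 that covers counting error only. A difference was not detectable at this depth. With no count filter the edgeR adjusted p was 0.399.

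**Figure D2:**
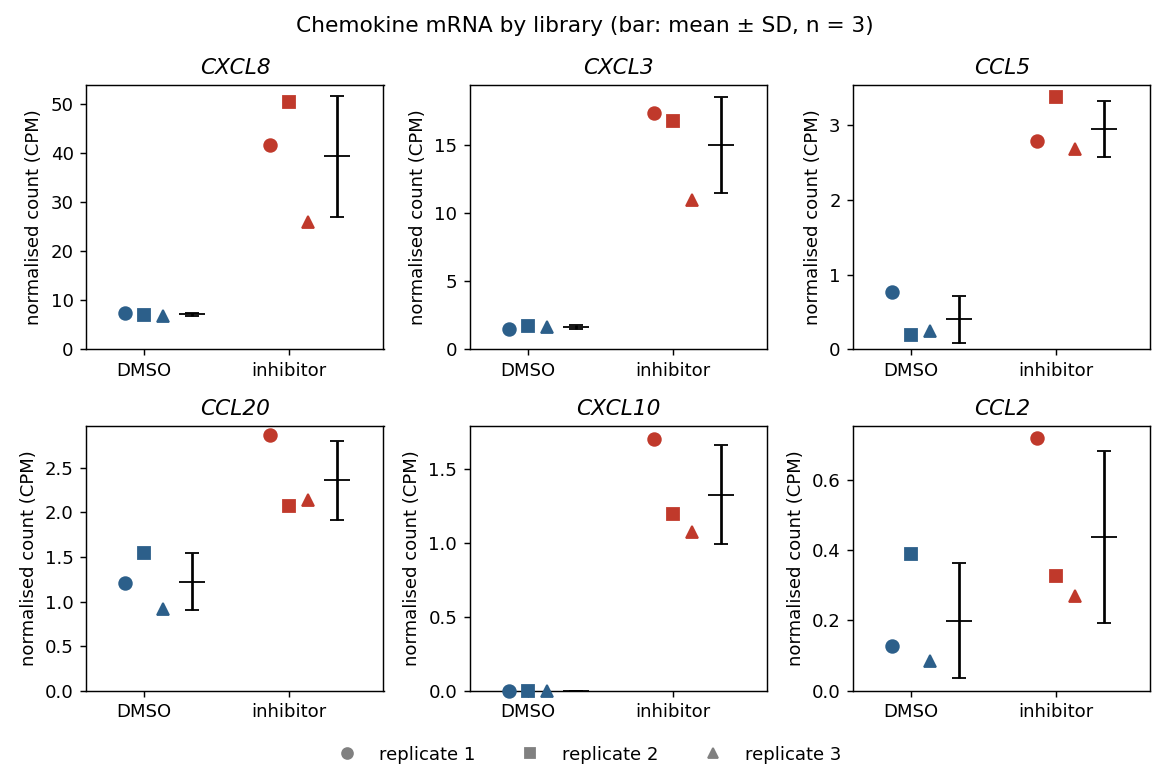
Normalised counts (CPM, linear axes from 0) of the 6 chemokine genes with any count, by library; symbols mark the replicate, and the bar beside each group is its mean ± SD (n = 3). The inhibitor libraries lie above all DMSO libraries for every gene except CCL2. CXCL10 and CCL5 had to show this, as they passed the count filter through the inhibitor libraries alone. Inhibitor replicate 3 is the lowest of its group for every gene except CCL20.

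Of the 10 genes 5 passed the low-count filter, which asks for about 0.854 CPM in at least 3 libraries, and all 5 rose. CXCL10 and CCL5 passed it through the inhibitor libraries alone and so had to differ. CXCL3, CXCL8 and CCL20 passed it in both groups. Over all 11391 genes tested 20.2% changed, 9.92% rose, and in 17.7% the inhibitor libraries lay above all DMSO libraries. With library totals as the scaling 831 genes rose and 1714 fell, against 1130 and 1168 with the TMM scaling used here. That scaling moved the median over all genes from 0.0034 to -0.068 on the log2 scale, and CXCL3, CXCL8, CXCL10 and CCL5 were called under both. Without DMSO replicate 2, 1405 genes changed in place of 2298.

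**Figure D3:**
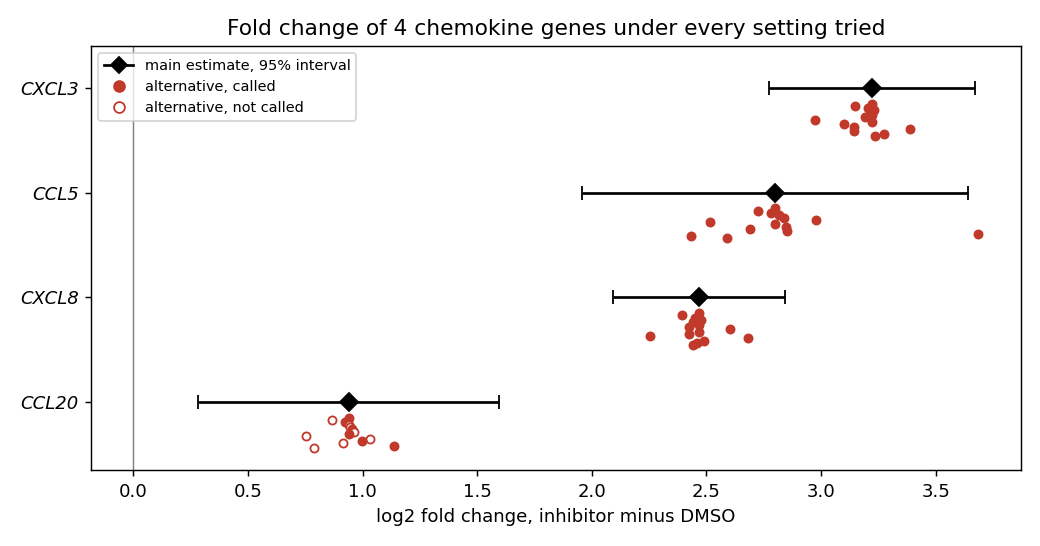
log2 fold change (inhibitor minus DMSO) of CXCL3, CCL5, CXCL8 and CCL20: diamonds and bars are the reported estimate with its 95% interval, and circles are the alternatives, filled where the adjusted p was under 0.05. CXCL3 and CXCL8 stay called in all their alternatives, and CCL20 does not. CCL5 stays called wherever it was tested, but it passed the count filter through the inhibitor libraries alone, so this adds no separate support. The CCL5 value at 3.69 is the one without DMSO replicate 1.

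CXCL1, CXCL2, CXCL5 and CXCL6, the remaining neutrophil attractants, had 0 counts in all 6 libraries. The upper limits that such a count leaves run from 0.196 to 0.392 CPM over the libraries. Of all 20683 symbols 22.3% were at 0 throughout. A row near 0 in these tables did not always mark a gene that the cells do not use. RPL13A, a protein of every ribosome, had 6, 4 and 5 counts in the inhibitor libraries and 0, 4 and 6 with DMSO, and RPS24, another, had 9, 14 and 5 and 9, 8 and 7. They are 2 of the 4 among 75 ribosomal protein symbols with a mean under 5 CPM, and were named after their values were seen.

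The coding transcripts of CXCL1, CXCL2 and CXCL3 (GENCODE release 29) share some exact stretches. The longest were 77 bases between CXCL1 and CXCL2, 55 between CXCL1 and CXCL3 and 97 between CXCL2 and CXCL3. Of all windows of 50 bases, 5.73% in CXCL1, 9.24% in CXCL2 and 5.26% in CXCL3 also occurred in one of the other two. CXCL5 and CXCL6, which were at 0 as well, shared no window of 50 bases with another gene of the 10. The longest exact stretch shared between CXCL5 and CXCL6 was 45 bases. The amplified part of each transcript is not given in the sources used here, so whether reads of CXCL1 or CXCL2 were lost or were counted as CXCL3 was not tested, and the CXCL3 values are uncertain to that extent. A sum over the rows of these 3 genes is the CXCL3 row itself.

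CXCL8, CXCL6, CXCL1, CXCL5, CXCL3 and CXCL2 lie in that order in 1 cluster on chromosome 4, with the platelet chemokine genes PF4V1, PF4 and PPBP between them. From CXCL8 to CXCL2 counts were found for CXCL8, CXCL3 and, at low level, PPBP and the pseudogene PPBPP2. PPBP had 8, 2 and 5 counts in the inhibitor libraries and 3, 2 and 0 with DMSO. The groups overlap in raw counts but not in CPM, and with no count filter its edgeR adjusted p was 0.073. PF4 and PF4V1 had 0 counts throughout.

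Of 34 other chemokine genes that were counted, 21 had no count in any library and 0 passed the count filter. Only PPBP and CXCL16, a membrane-bound chemokine, reached 10 counts over all libraries. CXCL16 had 9, 9 and 2 counts in the inhibitor libraries and 24, 12 and 8 with DMSO, which overlap. Together these 34 rows held from 1.47 to 2.51 CPM with the inhibitor and from 0.91 to 1.97 with DMSO. The 10 genes followed here summed to 67.1, 74.0 and 43.2 CPM with the inhibitor and 11.0, 11.0 and 9.81 with DMSO.

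Most of the receptors named above for these ligands had few or no counts in the same cells, and CXCR3, the receptor of CXCL10, was not among the symbols counted. CXCR1, CCR2 and CCR6 had 0 in every library, and CXCR2 had 0 in each inhibitor library and 0, 3 and 3 with DMSO. Of the receptors of CCL5, CCR1 had from 1 to 7 counts per library and CCR3 had 1 count in all. Of 21 chemokine receptor genes that were counted, 11 had no count, and 1 was tested, CCRL2, a receptor that binds the attractant chemerin and does not signal. CCRL2 had 14, 7 and 2 counts in the inhibitor libraries and 14, 14 and 11 with DMSO (log2 fold change -0.14 ± 0.46, edgeR adjusted p = 0.861).

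Of 14 tested genes for cytokines that induce chemokines and for their receptors, 5 rose and 1 fell, where 9.92% of all genes tested rose and 20.2% changed. The median of the list was 0.281 on the log2 scale, against 0.0034 for all genes tested. IL1B, which encodes the cytokine interleukin-1 beta, was at 48.4 ± 9.94 CPM with DMSO and 190 ± 16.2 with the inhibitor (SD, n = 3), and rose by 1.96 ± 0.13 on the log2 scale (edgeR adjusted p = 3.69e-10). IL1A, its close relative, rose by 1.82 ± 0.25 to 6.03 ± 1.18 CPM, and the interferon gamma receptor gene IFNGR1 by 0.64 ± 0.16. TLR4, the receptor for bacterial endotoxin, fell by 0.55 on the log2 scale, from 45.9 ± 5.86 to 31.4 ± 2.23 CPM. IL1R1, through which both interleukins act, had 17, 14 and 16 counts in the inhibitor libraries and 15, 13 and 20 with DMSO and was not called (adjusted p = 0.26). TNF had at most 5 counts in a library. IFNB1 had 1 count in all and IFNG none. IL1R1, TNF, IFNB1 and IFNG are named after their values were seen.

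Of 27 tested transcription factors and cofactors known to act at chemokine promoters, 12 rose and 0 fell, beside 9.92% of all genes that rose (median 0.318 on the log2 scale, against 0.0034). The largest rises were in EGR1 (2.23 ± 0.27), the unfolded protein response factor XBP1 (1.68 ± 0.13), ATF4 (1.59 ± 0.12) and ATF3 (1.47 ± 0.22). The NF-kB subunit genes NFKB2 (0.69 ± 0.11), RELB (0.54 ± 0.13) and RELA (0.38 ± 0.11) rose by smaller amounts. So did the inhibitor and cofactor genes NFKBIA (0.37 ± 0.11) and NFKBIZ (0.76 ± 0.12) and the C/EBP factor gene CEBPB (0.82 ± 0.25), and these 6 were added after their values were known. RELA lost its call with library totals and without inhibitor replicate 1 or DMSO replicate 3 (adjusted p from 0.055 to 0.124). CEBPB lost it without either of those libraries (0.175 and 0.105), and NFKBIA with library totals and when inhibitor replicate 1 or 2 was left out, or either of DMSO replicates 1 and 2 (0.068 to 0.0905). Several of these factors are themselves induced by NF-kB. mRNA levels do not report their activity.

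Chemokine mRNAs carry AU-rich elements and are short-lived. Of 17 tested genes for proteins that act on such mRNAs or on the signals that control them, 4 rose and 2 fell, where 20.2% of all genes changed and 9.92% rose. The list's median was 0.0002 on the log2 scale. Those that rose were the phosphatase gene DUSP1 (1.32 ± 0.11), TNFAIP3, which encodes the NF-kB restraining protein A20 (1.01 ± 0.17), the ribonuclease gene ZC3H12A (0.65 ± 0.17) and the decay factor gene ZFP36L1 (0.64 ± 0.12). ZC3H12A lost its call without inhibitor replicate 1 (edgeR adjusted p = 0.105). MAPK14 and TIAL1, named after their values were seen, fell, and 4 genes fell with library totals or without inhibitor replicate 3. Of 21 tested genes for proteases that trim chemokines and proteoglycans that hold them, 4 rose and 0 fell (median 0.195), so the share that changed was near the 20.2% of all genes. They were MMP1 (0.68 ± 0.20), the glypican gene GPC6 (0.57 ± 0.13), CTSD (0.52 ± 0.10) and MMP14 (0.31 ± 0.10). The call of MMP1 was lost without inhibitor replicate 2 or without DMSO replicate 2 or 3 (adjusted p from 0.052 to 0.0766). That of MMP14 was lost with library totals and without any one of 5 libraries, all but inhibitor replicate 1 (0.0653 to 0.129). Without DMSO replicate 2 or 3, 2 genes of that list rose.

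**Figure D4:**
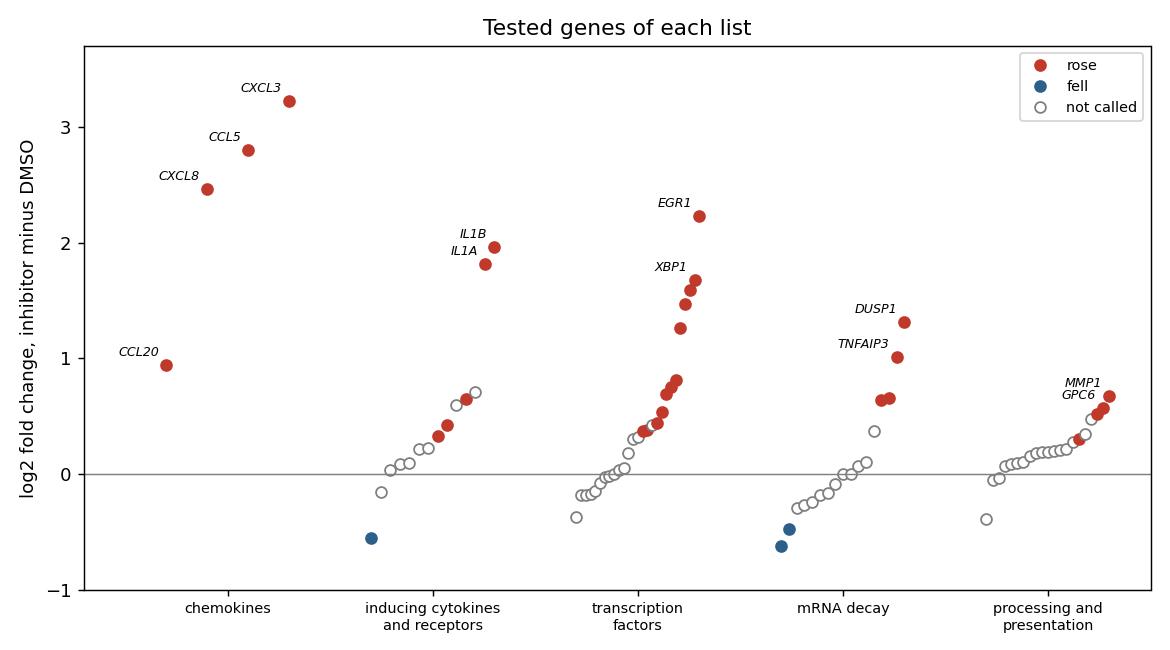
log2 fold change (inhibitor minus DMSO) of the tested genes of each list, ordered within the list; red circles rose, blue circles fell and open circles were not called. CXCL10 is left out because its DMSO libraries have no count, and CXCL3, CCL5 and CXCL8 lie above the genes of all other lists shown.

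The genes whose pattern over the 6 libraries lay closest to that of CXCL8, by the root mean square distance of centred log2 CPM among 9235 genes that averaged 5 CPM or more, were DDIT4 (0.167), IFIT2 (0.252), SLFN5 (0.252), TAGLN3 (0.273) and SESN2 (0.278). Those closest to CXCL3 were CXCL8 (0.379), SESN2 (0.392), DDIT4 (0.419), CHAC1 (0.44) and TRIB3 (0.47). The distance combines the difference between the groups with the order of the libraries within them.

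The labelled cell type was checked against marker genes. Of 18 mesenchymal genes 17 were tested, and together they held 17140 to 18860 CPM with the inhibitor and 14000 to 15090 with DMSO. Of these 17, 12 rose and 0 fell (median 0.39 on the log2 scale), where 9.92% of all genes rose, and 8 rose without inhibitor replicate 1, without DMSO replicate 1 or without DMSO replicate 2. Of 16 leukocyte markers 8 were at 0 in every library, among them PTPRC, CD3E, MPO and S100A8. The list summed to 338 to 359 CPM with the inhibitor and 256 to 305 with DMSO, nearly all of it from CD68, a lysosomal protein gene (346 ± 10.9 and 278 ± 25.2 CPM, SD, n = 3). The other 15 summed to 4.30 to 5.55 and 2.91 to 6.00 CPM. Of 8 endothelial markers TIE1 was at 59.1 ± 1.46 and 44.2 ± 2.52 CPM, and the other 7, of which CLDN5 was at 0, summed to 3.75 to 4.46 and 2.84 to 3.32 CPM. The 10 epithelial markers, of which CDH1, GRHL2 and OVOL1 were at 0, summed to at most 1.47 CPM with the inhibitor and 2.23 with DMSO. CD68 and TIE1 rose by 0.32 ± 0.10 and 0.42 ± 0.11 on the log2 scale. CD68 lost its call with library totals and when inhibitor replicate 1 or 2 was left out, or either of DMSO replicates 2 and 3 (edgeR adjusted p from 0.0652 to 0.179), and TIE1 without DMSO replicate 2 (0.053). Library totals were lower with the inhibitor, from 7644478 to 11427779 counts against 12003104 to 15336351 (p = 0.1 in a two-sided exact permutation test, which cannot go lower with groups of 3). Their part in the chemokine differences was not tested, and after thinning each library to the lowest total the log2 fold change was 2.60 for CXCL8 and 2.97 for CXCL3.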

How the data were processed

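RNA of 3 inhibitor and 3 DMSO cultures was made into Ion AmpliSeq Transcriptome libraries, in which part of each targeted transcript is amplified by multiplex PCR, per the labels' protocols. The deposited values are raw counts of reads per gene symbol. The submitters' processing notes list HTSeq, DESeq2 1.20.0 and hg19 without a role. An aligner, an annotation and a strand setting were not given in the sources used here. The tables hold no positions, so coordinates are those of the RefSeq promoter table alone.

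Counts of 11391 genes kept by filterByExpr were tested with edgeR 4.0.16 in R 4.3.3 (TMM, glmQLFit and glmQLFTest, no covariates), with Benjamini-Hochberg adjustment over all genes and a call at an adjusted p under 0.05, to which rose and fell refer. CPM use TMM-scaled library sizes. The reads had no molecular identifiers. Floors and the CXCL10 ratio use library totals and 3 counts, and, like the exact interval for CCL2, cover counting error only. The CXCL10 ratio covers it on the DMSO side alone. SE comes from the fold change and the F of its test. Intervals of log2 fold changes rest on that SE, so they also include the spread between replicate libraries. Pairs of replicates exceeded sampling noise (chi-square over degrees of freedom 9.32 to 14.7) and each was kept as 1 sample. Alternatives were other scalings, filters and thinning, a replicate block, DESeq2 1.42.0, limma 3.58.1 (voom), and each library left out. The procedure was tested on simulated counts.

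The 10 genes and all lists were chosen with earlier results of these data known. Named besides the 10 are, per list, up to 4 called genes by size of the log2 fold change, or up to 2 with the smallest p; other chemokine genes with at least 10 counts; and the 5 patterns nearest to CXCL8 and to CXCL3. The fibrosarcoma list's genes are given by their sum and counts of calls only, and some genes of the lists are not reported here. Motifs were searched on both strands, and promoter windows were aligned with Biopython 1.88.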

Additional observations from a re-analysis of the deposited data

How the results depend on the processing

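CXCL3 and CXCL8 kept their direction and their call in all 15 alternatives, of which that with the rows of CXCL1, CXCL2 and CXCL3 summed is the same fit, with log2 fold changes from 2.97 to 3.39 and from 2.26 to 2.68. CCL5 kept them in the 14 and CXCL10 in the 13 in which they were tested, with adjusted p up to 0.00111 and 0.000841. Both passed the count filter through the inhibitor libraries alone, so keeping the call where that filter was reused adds no separate support. CCL20 kept its direction in 14 and its call in 6. The number of chemokine genes called was 5, and 4 or 5 without any single library. It was 2 where a mean of 5 CPM was asked for, which leaves the low chemokine genes untested, and 3 after thinning each library to the lowest total, where CXCL10 was not tested and CCL20 not called. The number of all changed genes, 2298, ran from 1405 (without DMSO replicate 2) to 2246 without single libraries, that of genes that rose from 684 to 1133 and that of genes that fell from 721 to 1113. Same-numbered replicates of the 2 groups did not deviate together (correlations of 0.0364, -0.015 and 0.0107 over 11391 genes). This does not show whether they were set up together. With the replicate block 2223 genes changed, 1086 of them upward and 1137 downward, and 4 chemokine genes were called, all but CCL20 (adjusted p = 0.051). Counts of list members under these settings were chosen for recomputation after seeing the data. No difference could be detected for CCL2, which had few counts, or for the genes at 0. Whether depth or the amplified parts left those genes at 0 was not tested.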
